A study of Mus musculus with 8 samples.

Results

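A set of 10 genes of blood clotting was followed in S0 cells, the earliest of the erythroid stages sorted from fetal liver, in WT and Vps13a/Vps13c DKO embryos at E12.5. The 10 genes were chosen by name and role, as the 3 chains of fibrinogen (Fga, Fgb, Fgg), 4 procoagulant clotting factors (F2, F5, F7, F10), the B subunit of factor XIII (F13b), plasminogen (Plg) and antithrombin (Serpinc1). They are 10 of the 52636 genes in the count table, and all 10 were among the 17378 genes that passed the low-count filter and were tested. No measured value entered the choice by rule, although earlier results of these data were known when the genes were proposed.

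Blood clots when a cascade of proteases ends in thrombin, which cuts fibrinogen into fibrin. Factor XIII cross-links the fibrin, antithrombin inhibits thrombin and factor Xa, and plasmin, made from plasminogen, dissolves the clot. The liver makes most of these proteins and secretes them into the plasma. In the fetal liver they are mainly known as products of hepatoblasts, the epithelial precursors of hepatocytes, which share the organ with the erythroid cells that mature around them.

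The libraries were 4 WT and 4 DKO, made by template switching from small amounts of poly(A) RNA and sequenced as RNAseq. S0 cells were sorted as live cells negative for CD71 and Ter119 and for a cocktail of antibodies against lymphoid and myeloid surface antigens. The cocktail as listed held no antibody against a hepatocyte antigen. Mice were kept on a C57BL/6J background. The DKO embryos came from intercrosses of Vps13a+/-/Vps13c-/- mice, and their Vps13a null allele (tm1d) had been made in the whole body by successive crosses to FLP recombinase and β-actin-Cre mice. The labels call the control libraries wild type. The intercross also gave littermates that lack Vps13c, and the study separately used WT embryos of the same stage, but the parents of the WT embryos that were sequenced are not given in the sources used here. No treatment is given for either group, and it is not stated whether a library is 1 embryo, so the p-values measure the spread between these libraries, which may be partly technical.

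Summed over genes, the libraries held 42114489 to 50886469 counts in WT and 36981439 to 42587815 in DKO. Vps13a was lower in DKO (log2 fold change -1.29, edgeR adjusted p = 0.00247, no overlap of groups), and Vps13c did not pass the test (0.49, adjusted p = 0.182), so that its count does not check the labels. Of 14 erythroid markers, Klf1, Gata1 and Epor were abundant, at WT means of 12312, 8818 and 2419 normalized counts and DKO means of 12795, 8235 and 3348. Slc4a1 and Alas2 were lower, at WT means of 1057 and 515 and DKO means of 771 and 462. The 14 summed to 55886 to 63943 in WT and 47574 to 72759 in DKO (median log2 fold change 0.144, none called). The 12 megakaryocyte and platelet markers summed to 70124 to 82243 in WT and 48410 to 140699 in DKO. The hepatoblast markers Alb, Afp and Ttr were also abundant, at WT means of 98033, 305522 and 23237 and DKO means of 47508, 239876 and 12440. Normalized counts are counts divided by the library's effective (TMM) size and multiplied by the mean effective size. DKO replicate 3 stood apart from the other DKO libraries. It had the lowest summed level of the 31 hepatoblast markers, 282540 normalized counts against 680731, 1043814 and 931933 in DKO replicates 1, 2 and 4, and it was the only DKO library with Y-linked transcripts near the level of the 4 WT libraries. Sex therefore differed along with genotype in the other 3 DKO libraries. DKO replicate 3 lay below all 4 WT libraries for each of the 10 members. It is 1 library and also the lowest in hepatoblast markers, so sex and genotype cannot be told apart here.

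The upstream sequences of 4 members are printed here because 3 of them share a short motif and the fourth, Serpinc1, lacks it. All are read 5′ to 3′ on the strand of the gene, from RefSeq on GRCm38.p6. Promoters were found for 9 of the 10 members, all but Plg. The capitals ATTAAC mark the reverse complement of GTTAAT, the half-site of HNF1, a homeodomain factor of liver and other epithelia, and the capitals TTGCTCAA mark a match to TTGCNNAA, a loose form of the C/EBP site. The windows lie on the plus strand at chr1:139501582-139501701 for F13b, on the minus strand at chr3:83049864-83049983 for Fgb, on the plus strand at chr3:83026098-83026127 for Fga (30 bases around the motif, inside the annotated transcript) and on the plus strand at chr1:160978463-160978582 for Serpinc1.
F13b: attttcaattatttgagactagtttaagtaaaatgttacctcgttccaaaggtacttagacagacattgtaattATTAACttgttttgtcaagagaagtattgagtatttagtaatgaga
Fgb: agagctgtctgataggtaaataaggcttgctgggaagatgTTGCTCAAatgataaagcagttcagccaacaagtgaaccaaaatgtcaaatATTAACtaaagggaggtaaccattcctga
Fga: ccaagggtgatgATTAACctcctgccggtt
Serpinc1: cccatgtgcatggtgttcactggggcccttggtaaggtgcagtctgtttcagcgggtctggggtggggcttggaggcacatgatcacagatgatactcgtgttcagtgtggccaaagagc

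Within the 250 bases before the RefSeq start, on either strand, GTTAAT was present in 3 of the 9 members, with its first base at -51 in F13b, -43 in Fga and -29 in Fgb. It was present in 6.43% of all 32851 promoters of that length. TTGCNNAA was present in 2 of 9 members, at -135 in Fga and -80 in Fgb, and in 9.56% of all promoters. The other letters searched were found in none of the 9 members. For HNF4 these were CAAAGTCCA, held by 0.384% of all promoters, and its shorter form CAAAGT, held by 12.6%. For C/EBP it was TTGCGCAA (0.164%), itself a case of TTGCNNAA. For FOXA they were TGTTTAC (3.17%) and, as a second form, TGTTTGC (4.3%). For the erythroid factors of the GATA family it was AGATAA (9.99%). Other spellings of the GATA site, such as the TGATAA in the Fgb sequence printed above, were not searched. Of the 2 members called lower in DKO, described next, F13b held GTTAAT and Serpinc1 did not.

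Levels between genes were compared per kb of annotated exon. In WT the order was Fgg, at 7534 ± 1163 normalized counts per kb (SD, n = 4), then Fgb at 5644 ± 722, Fga at 3512 ± 583, Plg at 2910 ± 440, F2 at 2084 ± 302, F10 at 1859 ± 160 and Serpinc1 at 1234 ± 166. F13b (196 ± 28.7), F7 (176 ± 52.2) and F5 (175 ± 30.6) followed. The last 3 did not differ beyond their spread, and the ranges over the 4 WT libraries also overlapped between Fgg and Fgb, between Fga and Plg and between F2 and F10. In DKO the first 7 places by mean were held by the same genes in the same order, at 4480 ± 2417 for Fgg down to 611 ± 275 for Serpinc1. From Fgg to F10 the DKO ranges of neighbours in this order overlapped. F13b had the lowest mean in DKO, at 46.7 ± 14.6, but its range overlapped that of F7 (95.3 ± 78.45), so the last place was not settled. Together the 10 genes took 0.17% to 0.23% of all counts in the WT libraries and 0.0454% to 0.16% in the DKO libraries, with DKO replicate 3 the lowest.

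Relative to WT, all 10 genes had a log2 fold change below 0, where 47.4% of all genes tested did. The call used here needs a log2 fold change beyond 1 in size together with an edgeR adjusted p under 0.05. F13b and Serpinc1 were called lower, 2 of 10 members against 2.43% of all genes, and none was called higher, against 6.19%. With the adjusted p alone, F5 was added, which made 3 of 10 lower against 10.8% of all genes and 0 of 10 higher against 10.7%. All 4 DKO libraries lay below all 4 WT libraries for 6 members (Fga, F5, F10, F13b, Plg and Serpinc1), where 14.6% of all genes did the same and 13.5% had every DKO library above. The median log2 fold change was -0.86 over the members and 0.03 over all genes tested. In bulk libraries, fewer cells of a type and less RNA per cell cannot be told apart.

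**Figure D1:**
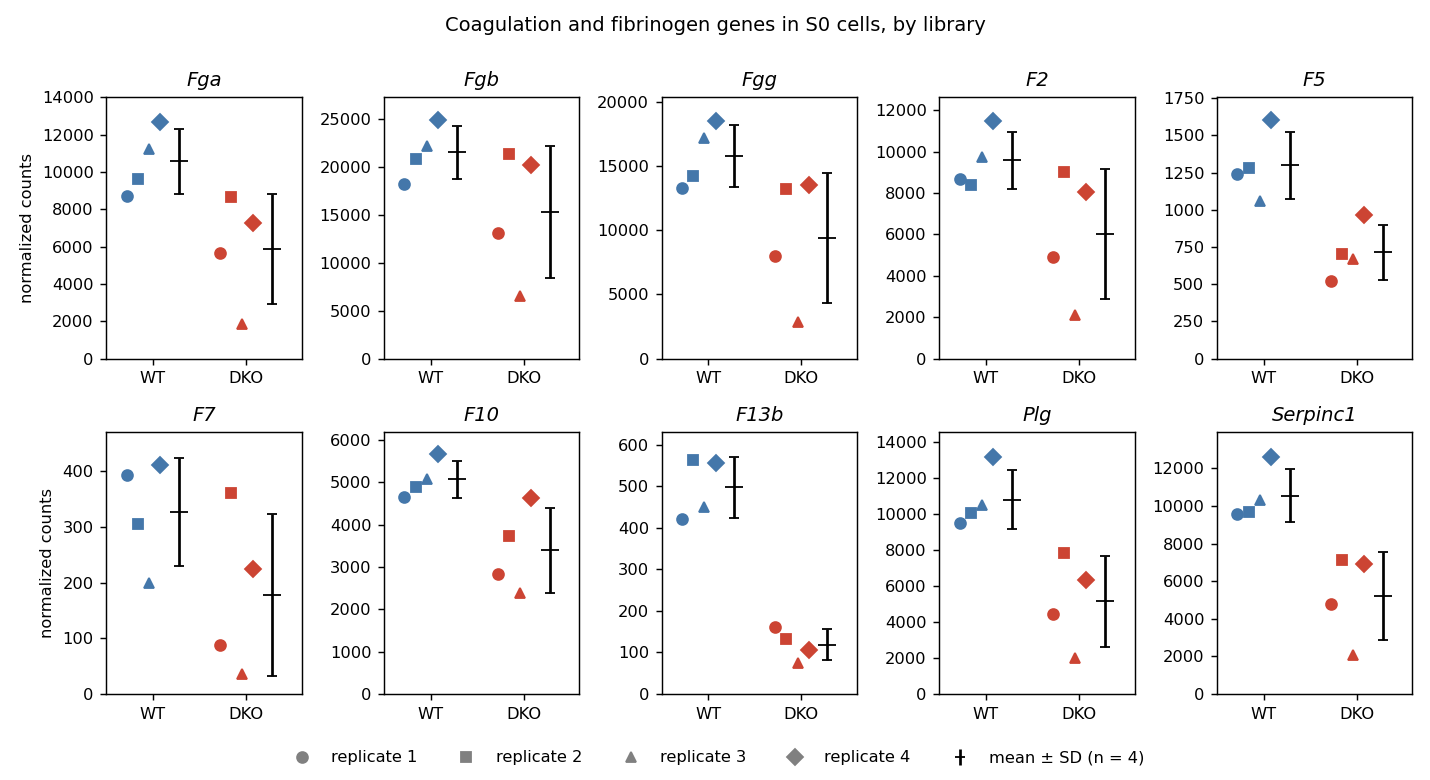
Normalized counts (vertical axis, linear, from 0) of each of the 10 genes in the 4 WT (blue) and 4 DKO (red) libraries, with a symbol for each replicate number and the mean ± SD (n = 4) beside each group. The groups are apart for Fga, F5, F10, F13b, Plg and Serpinc1, and DKO replicate 3 (triangle) is the lowest library for every gene but F5.

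The 3 fibrinogen chains are encoded within 42.1 kb on chromosome 3 and are joined into 1 hexameric protein. Fga (ENSMUSG00000028001.16, chromosome 3, plus strand, 83026076 to 83033627 of GRCm38), the Aα chain, had 8738, 9624, 11219 and 12707 normalized counts in WT replicates 1 to 4 and 5660, 8688, 1862 and 7260 in DKO replicates 1 to 4. The highest DKO library lay just under the lowest WT library, and DKO replicate 3 lay far under the rest. The log2 fold change of Fga was -0.85 (SE 0.37, edgeR adjusted p = 0.133), and a two-sided exact permutation of log2 CPM gave p = 0.0286, the smallest that 4 against 4 libraries allow, unadjusted over the 10 genes.

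Fgb (ENSMUSG00000033831.5, chromosome 3, minus strand, 83040141 to 83049863), the Bβ chain, had the highest counts of all members, with 18256, 20776, 22126 and 24858 normalized counts in WT, against 13132, 21300, 6494 and 20235 in DKO. DKO replicates 2 and 4 lay within the WT range and the other DKO libraries below it. Its log2 fold change was -0.49 (SE 0.31, edgeR adjusted p = 0.285), the smallest in size of the 10. Fgg (ENSMUSG00000033860.13, chromosome 3, plus strand, 83007724 to 83015049), the γ chain, had 13297, 14169, 17165 and 18445 normalized counts in WT, against 7970, 13206, 2820 and 13514 in DKO. Only DKO replicate 4 reached the WT range. The log2 fold change of Fgg was -0.75 (SE 0.39, edgeR adjusted p = 0.202). An exon of Fgg overlaps the antisense gene Gm30097, and whether the counting used strand is not given, so part of its count may belong to that gene.

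The 3 chains did not keep the same proportions. As a share of the fibrinogen counts per kb in each library, Fgb made up 34.1%, 35.4%, 32.7% and 33.4% in WT and 37.7%, 37.8%, 46.4% and 37.5% in DKO. All 4 DKO libraries lay above all 4 WT libraries, at 39.9% ± 4.39 against 33.9% ± 1.13 (SD, n = 4 each, two-sided exact permutation test, p = 0.0286). The share of Fga was 21.0% ± 0.418 in WT and 18.5% ± 1.86 in DKO, with all 4 DKO libraries below all 4 WT libraries (two-sided exact permutation test, p = 0.0286), although DKO replicate 1, at 20.6%, lay only just below the lowest WT library, at 20.7%. The share of Fgg was 45.1% ± 0.958 in WT and 41.7% ± 3.68 in DKO, and the groups overlapped (two-sided exact permutation test, p = 0.114). The 3 shares sum to 100% and are not independent, the p-values are unadjusted, and this comparison was chosen after the values were seen.

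**Figure D2:**
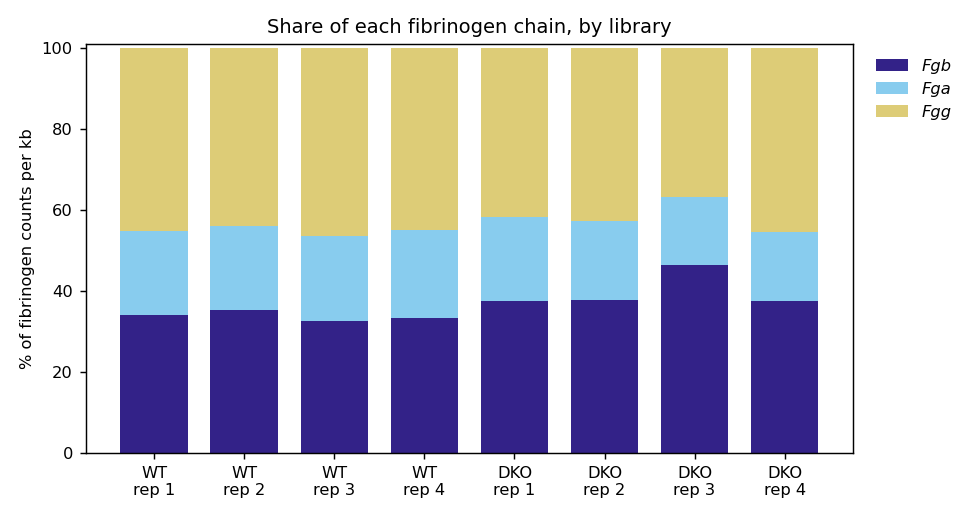
Share of Fgb, Fga and Fgg in the fibrinogen counts per kb of exon (vertical axis, %, stacked to 100) in each of the 8 libraries, WT replicates 1 to 4 and then DKO replicates 1 to 4. Fgb takes 32.7% to 35.4% in WT and 37.5% to 46.4% in DKO, with the largest share in DKO replicate 3.

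Among the procoagulant factors, F2 encodes prothrombin, the zymogen of thrombin. F2 (ENSMUSG00000027249.15, chromosome 2, minus strand, 91625320 to 91636414) had 8692, 8395, 9733 and 11468 normalized counts in WT, against 4907, 9009, 2095 and 8061 in DKO. DKO replicate 2 lay within the WT range, replicate 4 just under it, and replicates 1 and 3 well below. The difference, -0.67 on the log2 scale (SE 0.36, edgeR adjusted p = 0.219), did not pass the test.

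F5 encodes factor V, the cofactor that speeds the activation of prothrombin, which the liver secretes and platelets also store. F5 (ENSMUSG00000026579.8, chromosome 1, plus strand, 164151838 to 164220277) had 1243, 1281, 1060 and 1606 normalized counts in WT, against 520, 703, 668 and 965 in DKO. All 4 DKO libraries lay below WT, and here the lowest was replicate 1, not replicate 3. F5 was lower in DKO by the adjusted p but fell short of the fold threshold (log2 fold change -0.86, SE 0.20, edgeR adjusted p = 0.0167), with an exact permutation p of 0.0286. The summed level of 12 megakaryocyte and platelet markers overlapped between the groups (70124 to 82243 normalized counts in WT, 48410 to 140699 in DKO, median log2 fold change 0.06, 1 of 12 called lower, 0 called higher), and its part in the F5 result was not tested. An exon of F5 overlaps the antisense gene Gm16548, whose reads cannot be told apart here.

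F7 and F10 are neighbours on chromosome 8 and encode factor VII, which starts clotting together with tissue factor, and factor X, whose active form makes thrombin. F7 (ENSMUSG00000031443.7, chromosome 8, plus strand, 13026034 to 13035809) had 393, 306, 199 and 411 normalized counts in WT, against 88.3, 360, 35.4 and 225 in DKO. DKO replicates 2 and 4 lay within the WT range and replicates 1 and 3 below it. F7 had the widest spread of the 10 genes, a coefficient of variation of 29.7% in WT and 82.3% in DKO, and its log2 fold change of -0.88 (SE 0.60, edgeR adjusted p = 0.322) did not pass.

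F10 (ENSMUSG00000031444.16, chromosome 8, plus strand, 13037308 to 13056676) had 4662, 4883, 5082 and 5677 normalized counts in WT, against 2830, 3744, 2375 and 4625 in DKO. The groups did not overlap, but DKO replicate 4 came close to the lowest WT library. F10 had the lowest coefficient of variation in WT of the 10 genes, 8.59%, and 29.4% in DKO. Its log2 fold change of -0.58 (SE 0.19) had an edgeR adjusted p of 0.052, just over the threshold, and an exact permutation p of 0.0286.

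F13b was the member with the largest difference. It encodes the carrier subunit that stabilizes factor XIII in plasma. F13b (ENSMUSG00000026368.6, chromosome 1, plus strand, 139501702 to 139523752) had 420, 562, 450 and 556 normalized counts in WT, against 161, 133, 74.5 and 106 in DKO. All 4 DKO libraries were low, not replicate 3 alone, and a wide gap lay between the groups. The mean fell from 497 ± 72.7 to 118 ± 36.9 (SD, n = 4 each), or -2.07 on the log2 scale (SE 0.27, edgeR adjusted p = 0.00257). F13b was called lower in each of the 18 fits over all genes, the one described and 17 alternatives.

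Plg encodes plasminogen, the zymogen of the protease that dissolves fibrin. Plg (ENSMUSG00000059481.4, chromosome 17, plus strand, 12378608 to 12419385) had 9473, 10076, 10477 and 13166 normalized counts in WT, against 4438, 7807, 1972 and 6350 in DKO. The groups did not overlap, and DKO replicate 3 held less than the others by far. At -1.07 on the log2 scale (SE 0.34) and an edgeR adjusted p of 0.0505, Plg missed the call by its p and passed it in 4 of the 18 fits. Its exons overlap those of Slc22a3 on the other strand.

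Serpinc1 encodes antithrombin, the serpin that inhibits thrombin and factor Xa. Serpinc1 (ENSMUSG00000026715.12, chromosome 1, plus strand, 160978585 to 161005863) had 9587, 9670, 10310 and 12623 normalized counts in WT, against 4766, 7117, 2084 and 6924 in DKO. As with Plg, the groups did not overlap and DKO replicate 3 was lowest. The log2 fold change of -1.01 (SE 0.32, edgeR adjusted p = 0.0486) met both thresholds by a narrow margin, and Serpinc1 was called in 6 of the 18 fits. Its exons overlap those of Zbtb37 on the other strand.

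The order of the DKO libraries was much alike across the liver-secreted members. For Fga, Fgb, F2, F7, Plg and Serpinc1 the level fell from replicate 2 over 4 and 1 to 3, and the summed hepatoblast markers had the same order. Fgg and F10 differed from it only in that replicate 4 was above replicate 2. F5 was highest in replicate 4 and lowest in replicate 1, and F13b highest in replicate 1 and lowest in replicate 3.

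Without DKO replicate 3, all 10 log2 fold changes stayed below 0 and were smaller in size. Those of Fgb and F2 became -0.23 and -0.38 (edgeR adjusted p = 0.371 and 0.208), and those of Fga, Fgg and F7 became -0.55, -0.44 and -0.53 (adjusted p = 0.0499, 0.137 and 0.441). F10 had -0.44 (adjusted p = 0.075). Plg and Serpinc1 had smaller differences with smaller p-values, -0.79 (adjusted p = 0.021) and -0.74 (adjusted p = 0.0144), and were then under the fold threshold, which left F13b, at -1.90 (adjusted p = 0.00325), as the 1 member called. F5 was hardly moved, at -0.83 (adjusted p = 0.0308). In no member was DKO replicate 3 the highest DKO library, so the same 6 members had no overlap with or without it.

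**Figure D3:**
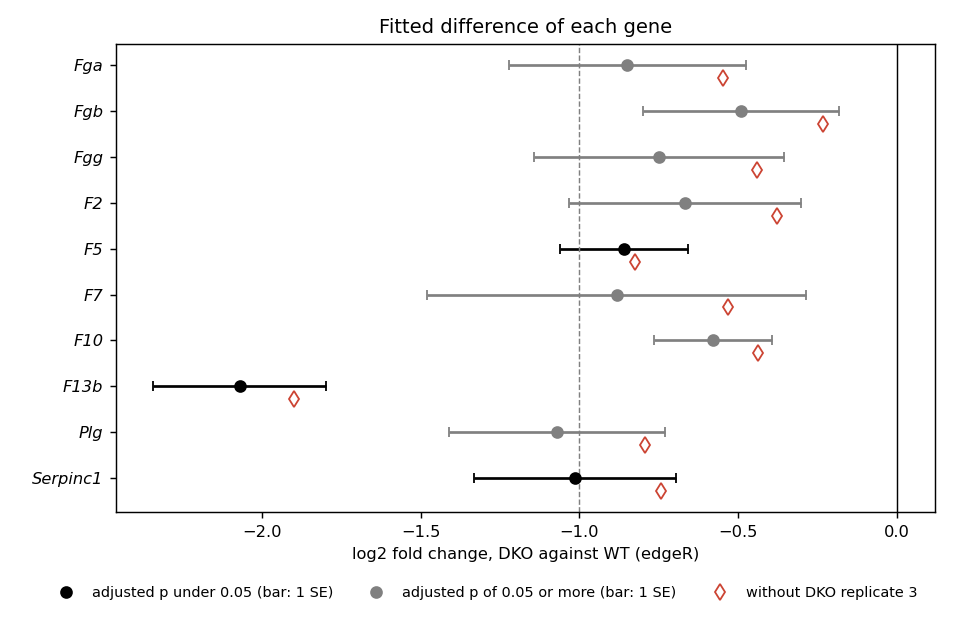
Log2 fold change of DKO against WT (horizontal axis) for each of the 10 genes, with bars of 1 SE from edgeR over 4 and 4 libraries, and open diamonds for the fit without DKO replicate 3. The dashed line marks -1, black points have an adjusted p under 0.05, and F13b lies far to the left of the other genes in both fits.

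The members were then set against hepatoblast marker transcripts of the same library, although not every member followed these markers over the libraries, as given below. The 31 hepatoblast markers (plasma proteins such as Alb and Afp, membrane proteins such as Dlk1 and Epcam, and transcription factors such as Hnf4a) were all tested, 23 had a log2 fold change below 0, 1 (Cdh1) was called lower, none was called higher, none was at 0, and their median log2 fold change was -0.42. Their summed level was 904137 to 1206977 normalized counts in WT and 282540 to 1043814 in DKO. Afp and Trf held 48.8% of these counts. Each member was divided by the summed marker counts of its library and tested by an exact permutation, two-sided, on log2 ratios, 10 tests with no adjustment.

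Relative to these markers, 4 of the 10 members were lower in every DKO library than in every WT library, where 1.2% of all genes tested were. The mean marker sum was itself lower in DKO (734754 against 1070833 in WT), which lifts the ratio of any gene that does not fall with it. The 1.2% is thus not a share over hepatoblast genes. Among the markers, Alb and Apoa1 had log2 fold changes of -1.045 and -1.021, much like Plg (-1.07) and Serpinc1 (-1.01), but Rbp4 and Dlk1 had 0.012 and 0.065. F13b had ratios of 4.65, 5.77, 3.73 and 4.64 per 10000 marker counts in WT and 2.36, 1.27, 2.64 and 1.13 in DKO, a difference of -1.42 on the log2 scale (exact permutation test, p = 0.0286). Plg had 104.8, 103.4, 86.8 and 109.9 in WT and 65.2, 74.8, 69.8 and 68.1 in DKO, a difference of -0.54 with the same p. On this scale DKO replicate 3 lay amid the other DKO libraries for Plg and was the highest of them for F13b.

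Serpinc1 had ratios of 106.0, 99.2, 85.4 and 105.4 per 10000 in WT and 70.01, 68.2, 73.8 and 74.3 in DKO, a difference of -0.46 on the log2 scale (exact permutation test, p = 0.0286). The DKO libraries lay close together. Fga had 96.6, 98.8, 93.0 and 106.1 in WT and 83.2, 83.2, 65.9 and 77.9 in DKO, a difference of -0.35 (exact permutation test, p = 0.0286). The differences were -0.54 for Plg, -0.48 for Serpinc1, -0.28 for Fga and -1.63 for F13b without DKO replicate 3.

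For the other 6 members the ratios of the groups overlapped. Fgb, the largest by count, had a mean ratio of 201.5 ± 12.97 in WT against 211.0 ± 16.0 for DKO (SD, n = 4), a difference of 0.07 on the log2 scale (exact permutation test, p = 0.371). Fgg had -0.28 (p = 0.0571 by the same exact test), F2 had -0.17 (exact p = 0.171) and F7 had -0.63 (exact p = 0.229). The ratios of F5 and F10 moved with the libraries used. In DKO replicate 3 the ratio of F5 was 23.6, against 6.74 to 10.4 in the other DKO libraries and 8.78 to 13.8 in WT, and that of F10 was 84.1, against 35.9 to 49.6 and 42.1 to 51.6. The difference of F5 was -0.19 with all libraries, -0.58 without DKO replicate 3 and 0.03 without DKO replicate 2. That of F10 was 0.07 with all libraries, -0.18 without DKO replicate 3 and 0.23 without DKO replicate 2. No exact test of these was under 0.05 with any library left out.

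**Figure D4:**
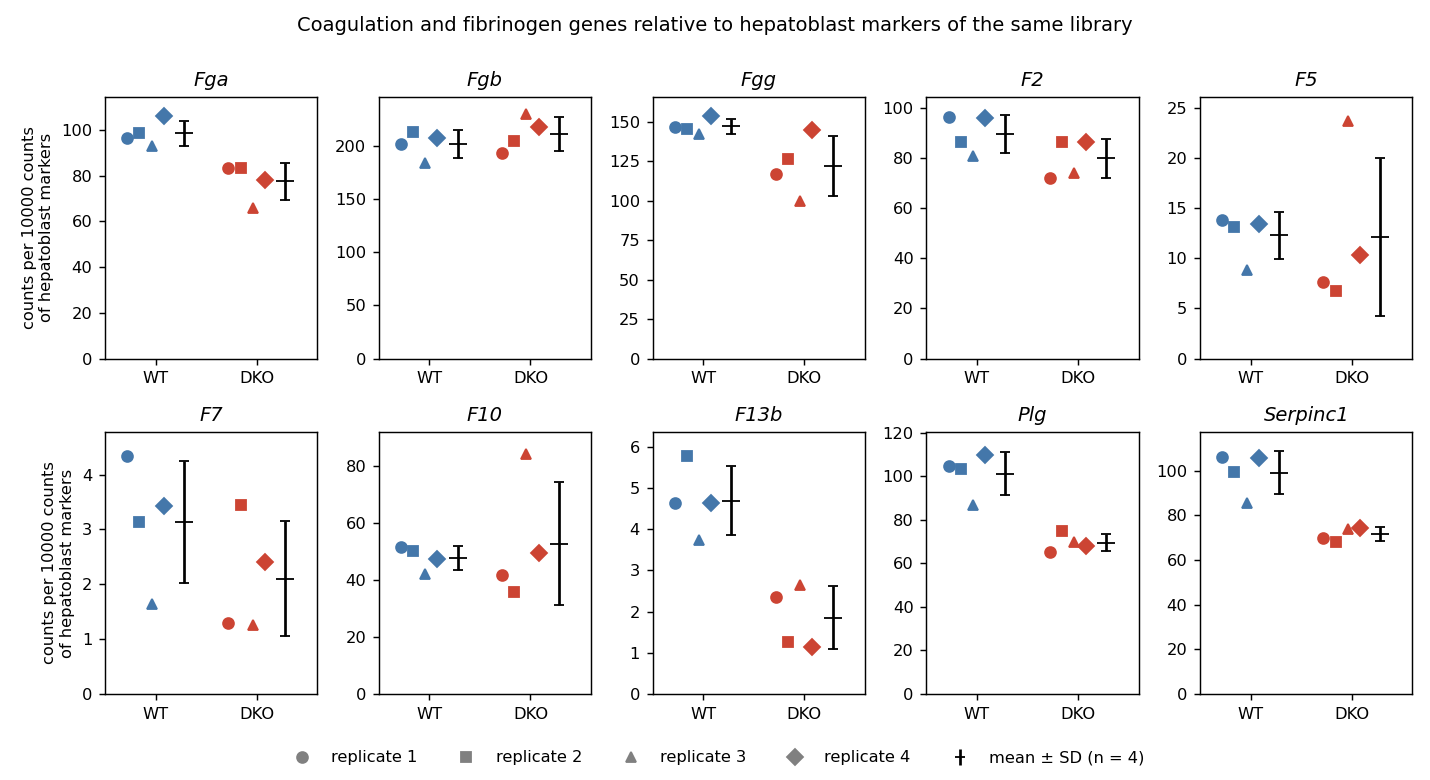
Counts of each gene per 10000 summed counts of the 31 hepatoblast markers of the same library (vertical axis, linear, from 0), for 4 WT (blue) and 4 DKO (red) libraries, with the mean ± SD (n = 4). The groups are apart for Fga, F13b, Plg and Serpinc1 and overlap for the other 6, and DKO replicate 3 (triangle) is far above the rest for F5 and F10.

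The denominator mattered. With Alb, Afp and Ttr alone below the line, the same 4 members were apart (1.24% of all genes), and their differences were between -0.39 for Fga and -1.46 for F13b. With the 11 hepatoblast transcription factors, 7 members were apart (3.18% of all genes), Fgb, Fgg and F2 being added, and all 10 differences were below 0, from -0.47 for F10 to -1.97 for F13b. Fgb and F10, slightly above 0 against the whole list, were -0.48 and -0.47 against the transcription factors. Fga, F13b, Plg and Serpinc1 were lower without overlap against all 3 denominators. The 2 shorter denominators are parts of the whole list, so the 3 are not independent checks.

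The genes most alike to each member over the 8 libraries were found by Pearson's r of log2 CPM among 11397 protein-coding genes. These points share 2 groups and 1 far library, and the r values are a description. The mean of the fibrinogen chains was most like Serpina1b (r = 0.997), a plasma protease inhibitor with near-identical copies, Serpind1 (0.996), which encodes the thrombin inhibitor heparin cofactor II, and Trf (0.994), which encodes transferrin. F2 was also most like Serpind1 (0.997), Trf and Sema4a. Plg was most like Kng1 (0.998), Selenop and Maob, and Serpinc1 like Selenop (0.996), Kng1 and Rgn.

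Of the 50 genes most like each member, 10 were on the hepatoblast list for Fga, 8 for Fgg, 7 for Serpinc1, 6 for Fgb and Plg, and 5 for F2, but 2 for F7, 1 for F10 and 0 for F5 and F13b. F5 was most like Wbp2 (r = 0.996), F13a1 (0.988) and Gpr160 (0.987), and F13b like Gas2l3 (0.985), Lipo3 and Fam110a (both 0.984). F10 was most like Hsd17b12 (0.990), F11 (0.989) and Abhd3 (0.986), and F7 like Nfkbie (0.988), Sdr42e1 and Pecr.

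Nearby tested protein-coding genes were read at each locus. Beside the fibrinogen cluster, Plrg1 had -0.22 on the log2 scale (edgeR adjusted p = 0.126) and Rbm46 had 1.79 (adjusted p = 0.191). Beside F7 and F10, Mcf2l had 0.91 (adjusted p = 0.0801) and Proz, a further vitamin K-dependent plasma protein of the pathway, -1.22 (adjusted p = 0.0716). Beside F13b, Aspm was lower (-0.47, edgeR adjusted p = 0.0208). Ckap5 beside F2 was also lower, under the fold threshold (-0.50, adjusted p = 0.03). Zfp408 beside F2, Rc3h1 beside Serpinc1, Selp and Slc19a2 beside F5, and Map3k4 and Igf2r beside Plg did not pass (adjusted p from 0.0972 to 0.3).

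Beyond the 10 members, a list of 42 other coagulation and fibrinolysis genes held 38 that were tested. Of these, 8 were called lower and 2 called higher, and with the adjusted p alone 10 were lower and 2 higher, against the shares of all genes given above. In 16 of the 38, all 4 DKO libraries lay below all 4 WT libraries, and in 2 above. The median log2 fold change of the 38 was -0.56. The rest of the list was too low to be tested.

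Of the other clotting factors, F13a1 and F9 were lower. F13a1, which encodes the catalytic A subunit of factor XIII, had 2807, 2898, 2025 and 3537 normalized counts in WT, against 314, 577, 606 and 1261 in DKO (log2 fold change -2.03, SE 0.37, edgeR adjusted p = 0.00688). Both subunits of factor XIII, F13a1 and F13b, were lower in DKO, with no overlap of the libraries in either. F13a1 is also made by macrophages and megakaryocytes, and the summed level of 14 macrophage and monocyte markers was 8495 to 12730 normalized counts in WT and 2780 to 5879 in DKO (13 tested, 11 below 0, 2 called lower, none at 0, median log2 fold change -0.82). The antibody cocktail of the sort included CD11b and Ly6G/Ly6C, antigens of myeloid cells, and was meant to remove such cells. Their part in the F13a1 result was not tested.

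F9, which encodes the vitamin K-dependent factor IX, had 32.5, 83.5, 37.4 and 97.9 normalized counts in WT, and in DKO it had 4.65 in replicate 2 and 0 in the others (edgeR adjusted p = 0.00912). These are few counts, and the size of the fold change depends on them. In the contact system, which starts clotting on charged surfaces, Klkb1 (plasma prekallikrein) and Kng1 (kininogen) were lower, at log2 fold changes of -2.68 (adjusted p = 0.0251) and -1.29 (adjusted p = 0.0483). Klkb1 had 232 to 352 normalized counts in WT and 4.88 to 113 in DKO, and Kng1 had 12069 to 15704 and 1660 to 9064.

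The broad protease inhibitors A2m and Pzp were both lower, with WT means of 702 ± 131 and 2795 ± 573 normalized counts and DKO means of 213 ± 67.6 and 645 ± 381 (SD, n = 4). Their log2 fold changes were -1.72 (edgeR adjusted p = 0.00409) and -2.12 (adjusted p = 0.0139). Fgl2, a fibrinogen-like protein that is not a fibrinogen chain, had -1.02 (adjusted p = 0.0106). F2r, which encodes the thrombin receptor PAR1, had 10008 to 13908 normalized counts in WT and 4400 to 7852 in DKO (-1.05, adjusted p = 0.00653).

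In the machinery that activates and exports clotting factors, Ggcx, the carboxylase that vitamin K-dependent factors such as F2, F7 and F10 require, was lower (log2 fold change -0.70, edgeR adjusted p = 0.0128), and so was Mcfd2, which helps to export factors V and VIII (-0.27, adjusted p = 0.0477). Vkorc1, which recycles vitamin K, had -0.10 (adjusted p = 0.398). None of the 9 anticoagulants tested passed, nor did any fibrinolysis gene except Plat. The genes of this list with the highest level per kb in WT were Serpinf2 (α2-antiplasmin), Vkorc1 and Kng1, at 13600, 4524 and 4137 normalized counts per kb. Serpinf2 had 28309 to 37600 normalized counts in WT and 6190 to 25291 in DKO, without overlap, and did not pass (-0.85, adjusted p = 0.106).

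Plat and F3, the 2 genes of the list that were higher, encode tissue plasminogen activator and tissue factor, and neither is a typical hepatocyte product. Plat had 40.8, 30.1, 126 and 78.7 normalized counts in WT, against 1928, 527, 966 and 508 in DKO (log2 fold change 3.83, SE 0.59, edgeR adjusted p = 0.00399), and it was called in all 18 fits. F3 had 0, 10.3, 4.34 and 22.7 normalized counts in WT, against 82.0, 54.6, 447 and 50.2 in DKO (4.05, SE 1.11, adjusted p = 0.0296), and it was called in 11 of the 17 fits that held it. The summed level of 11 mesenchyme markers moved the same way, with 4917 to 8319 normalized counts in WT and 15712 to 48821 in DKO (10 tested, 8 called higher, median log2 fold change 2.36, none at 0). The 12 endothelial markers, which mark another cell type that makes Plat, were 6719 to 8695 in WT and 3498 to 4979 in DKO (10 of 12 below 0, 2 called lower, none at 0). The part of either cell type in these results was not tested.

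**Figure D5:**
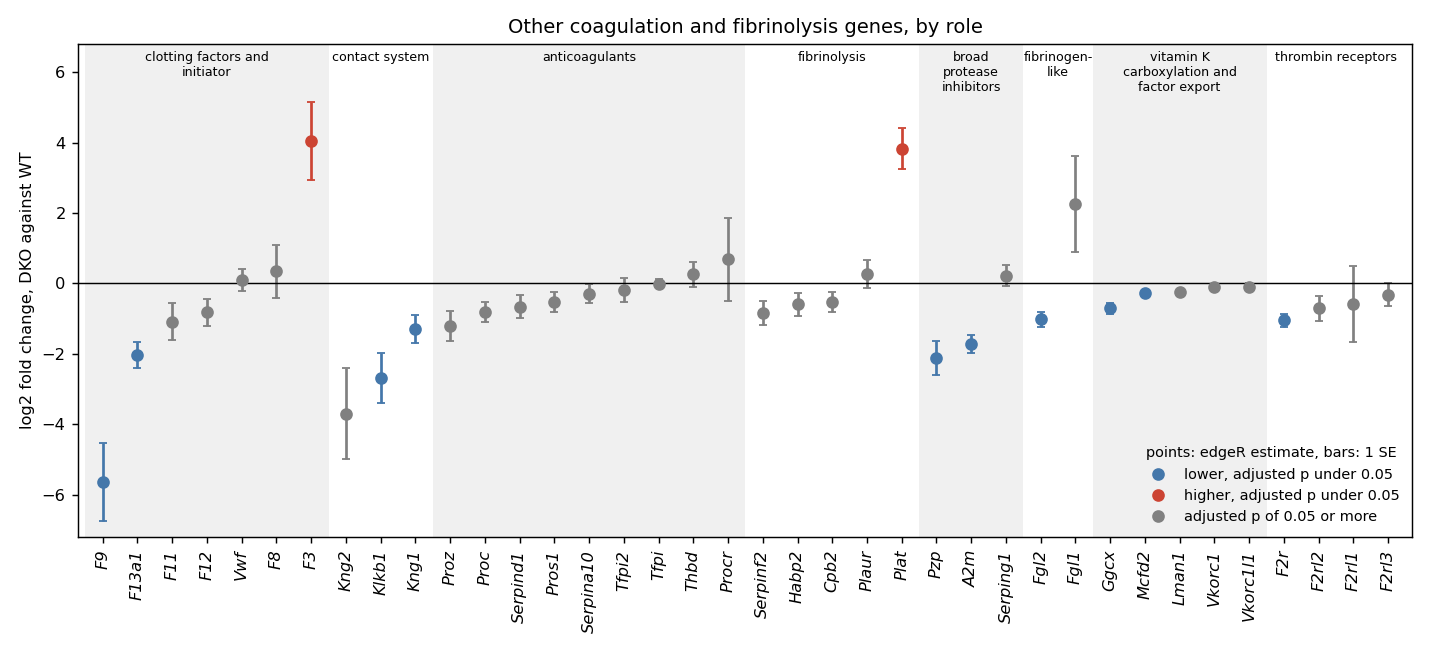
Log2 fold change of DKO against WT (vertical axis) with bars of 1 SE from edgeR (n = 4 each) for the 38 tested genes of the list of other coagulation and fibrinolysis genes, grouped by role and sorted within each. Of those with an adjusted p under 0.05, 10 are lower (blue) and 2, F3 and Plat, are higher (red).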

How the data were processed

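RNAseq was measured in S0 cells of the E12.5 liver, in 4 WT and 4 DKO libraries grouped and numbered by the sample labels. According to the paper's methods and the submitters' processing notes, the authors trimmed the reads with fastp 0.21.0, mapped them to mm10 (GRCm38) with HISAT2 2.2.1, removed alignments of low mapping quality, and made counts per gene with StringTie 1.3.3b and its prepDE script against a GENCODE annotation. What was deposited is these whole-number counts, neither normalized nor pooled. The prepDE script works back from coverage, so a count is not exactly a number of reads, and the strand setting is not given in the sources used here.

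Symbols and coordinates came from a GENCODE annotation of GRCm38, which matched 52489 of 52636 gene identifiers with the version ignored. The tools were edgeR 4.0.16 and limma 3.58.1 under R 4.3.3. After filterByExpr and TMM scaling, the groups were compared by edgeR's quasi-likelihood test in its robust form, with p-values adjusted after Benjamini and Hochberg over all 17378 genes and no covariate. Each standard error follows from the F statistic and the size of the fitted change. Calls needed a log2 fold change beyond 1 and an adjusted p under 0.05. Single genes, ratios and shares were compared with a two-sided exact permutation test over 70 arrangements (fewer with a library left out), on log2 CPM (prior count 1), log2 ratios of counts, or percentages. The steps were tested on simulated data.

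The members and all lists were chosen with earlier results of these data known. The text names the members, each gene of the other coagulation list with an adjusted p under 0.05 and its 3 highest per kb in WT, the leading markers of the lists, the targeted genes, neighbouring genes and the 3 genes most like each member. Any gene named beyond these was picked with its values in view. Within a genotype, no pair of libraries agreed within counting error (chi-square per gene of at least 18.87), and each was counted once. At these depths the spread between libraries, and not counting error, set the precision of the members. The alternatives were DESeq2 1.42.0, other scalings and filters, removal of hemoglobin genes, protein-coding genes only, each library left out, a replicate block, sex as a term (added after seeing the data), no fold threshold and 2 other denominators. No p was adjusted over the list of members alone. A few genes that this rule would name are not reported here.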

Additional observations from a re-analysis of the deposited data

Results flagged for a closer look

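Of 40 groups of 4 libraries tested with Dixon's criterion (the level and the ratio to hepatoblast markers of each of the 10 genes, in WT and in DKO), 1 held a library far from the others. It was the ratio of F5 to the hepatoblast markers in WT, where replicate 3 had 8.78 per 10000 marker counts and the other libraries 13.2 to 13.8, a gap of 0.901 of the whole range, which is over the 95% critical value for 4 libraries. Chance alone marks about 1 in 20 such groups. The far ratios of F5 and F10 in DKO replicate 3 did not reach the critical value.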

How the results depend on the processing

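Over 18 fits, the one reported and 17 alternatives, the log2 fold change of each of the 10 members was below 0, no member was called higher and F13b was called lower in all 18. Serpinc1 was called in 6 and Plg in 4. Fga, Fgb, Fgg, F2 and F10 were called in 1, with sex as a term, and F7 in none. That term, chosen after seeing the data, gave 8 members called lower (all but F5, at -0.96 with adjusted p = 0.139, and F7), 13 other coagulation genes called lower and 273 genes called higher. By construction its genotype difference rests on DKO replicate 3 against WT, the library with the lowest hepatoblast markers. In the other fits 1 member in place of 2 was called lower with upper-quartile scaling, with no low-count filter, with at least 10 counts in every library, with protein-coding genes only and with the replicate block. The count was 3 with DESeq2, the method of the study, and with library size without TMM. DESeq2 gave adjusted p of 0.0061 for Plg, 0.00605 for Serpinc1, 0.0167 for F10 and 0.000506 for F5, and called 11 other coagulation genes lower. Leaving out each library in turn gave 1 to 3 members called lower. Without DKO replicate 4, F5 also passed the fold threshold (-1.04), and without DKO replicate 2 Plg was called (-1.35, edgeR adjusted p = 0.0279). Of the other coagulation genes, 5 were called lower with upper-quartile scaling and with at least 10 counts in every library, 5 to 8 with a library left out, and 1 was called higher with DESeq2, with at least 10 counts in every library and with the replicate block, 1 to 2 with a library left out. Over all genes, 423 were called lower and 1076 higher. With no fold threshold these became 1878 and 1867, DESeq2 gave 1665 higher, the replicate block gave 613 higher, and leaving out a library gave 243 to 521 lower and 566 to 1148 higher. Dividing by the hepatoblast transcription factors moved the count of members apart from 4 to 7 and turned the ratios of Fgb (0.07 to -0.48, exact permutation p = 0.0286) and F10 (0.07 to -0.47, exact permutation p = 0.114) below 0. The causes were not tested. The median log2 fold change of all genes was 0.03 here, and 0.15, 0.14 and 0.13 with DESeq2, upper-quartile scaling and no filter, so changes under these are relative to that shift. Same-numbered libraries did not deviate together (r of -0.089, 0.043, -0.021 and -0.007), so the numbers were not taken to pair the samples. With the block, Serpinc1 had an adjusted p of 0.0511, Plg 0.0504, F10 0.0443 and F13b 0.0176. With each library left out, the exact test of the ratios stayed at p = 0.0286 for Fga and Plg, became 0.0571 for F13b without WT replicate 2 and for Serpinc1 without any 1 of the DKO libraries, and became 0.0286 for Fgg without DKO replicate 4. These exact tests had fewer than 70 arrangements and groups of unequal size. Leaving out a library cannot bring in an overlap, so Fga, F13b, Plg and Serpinc1 stayed apart in every case. The ratio difference ran from -0.575 to 0.029 for F5 and from -0.183 to 0.227 for F10.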
